A study of Homo sapiens with 18 samples.

Results

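HOX genes encode homeodomain transcription factors that tell cells where along the body axis they lie. In humans they sit in 4 clusters, HOXA, HOXB, HOXC and HOXD, and the number in a gene's name gives its paralogous group, from anterior (low numbers) to posterior (high numbers). Cells of the trunk and limbs keep a combination of active HOX genes, often called a HOX code, long after the embryo is formed, and cultured skin cells carry such a code into the dish. Polycomb proteins keep unused HOX genes silent, Trithorax proteins keep used ones active, and TALE homeodomain proteins such as MEIS and PKNOX bind DNA together with HOX proteins.

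The HOX genes described here are all protein-coding genes whose symbol is HOX, a cluster letter and a group number, 39 of 58870 genes in the files and of 19986 protein-coding ones. The HOXA genes (11) lay at chr7:27092993-27200091, the HOXB genes (10) at chr17:48528526-48728750, the HOXC genes (9) at chr12:53938831-54056030 and the HOXD genes (9) at chr2:176092721-176190907 of GRCh38. RNA-seq was done in 3 human melanoma lines, WM164, SKMEL28 and A375. Each line was transduced with a lentiviral vector that drove either Myc-DDK-tagged MAFG, a small MAF transcription factor of the bZIP family, or GFP from the EF1α promoter, was selected with blasticidin and grew in RPMI with 5% FBS. The 6 groups had 3 libraries each, 18 in all, with 20122172 to 39025042 counts per library (median 31061375). The questions were which HOX code each line carries and whether MAFG overexpression changed it.

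MAFG itself was at 23.0 to 28.8 CPM (counts per 1000000, scaled over all 18 libraries) in WM164 GFP libraries and 47.8 to 56.0 in WM164 MAFG libraries, at 20.1 to 26.2 and 35.8 to 38.9 in SKMEL28, and at 23.7 to 32.7 and 37.8 to 56.3 in A375. Every MAFG library was above every GFP library of its line. The melanocyte lineage markers MITF, SOX10, PMEL, MLANA, TYR and DCT summed to 902 to 1252 TPM (transcripts per 1000000, a level per length) in WM164 GFP and 1765 to 1932 in SKMEL28 GFP libraries, but to 11.8 to 12.8 in A375 GFP libraries, and MLANA, TYR and DCT were listed at 0 TPM in all A375 libraries. With MAFG the sums were 593 to 685, 1284 to 1462 and 35.9 to 47.3 TPM. Fibroblast, keratinocyte, immune cell and endothelial markers summed to at most 12.7, 65.9, 0.89 and 0.81 TPM, and the immune markers PTPRC, CD3E and MS4A1 were listed at 0 TPM in every library. The part of these markers in any HOX result was not tested. A375 MAFG replicate 1 stood apart from the other libraries of its group: the mean chi-square per gene between it and them was 68.7 and 96.7, against 5.90 to 30.2 for all other pairs of replicates.

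The promoters of 4 HOX genes whose levels or responses set the lines apart are shown first. Each is the RefSeq window of 250 bases before to 50 after the start site (GRCh38.p14), written 5′ to 3′ on the strand of the gene. Capitals mark the E-box hexamer CACGTG and its close variant, which reads CATGTG on one strand and as CACATG when read from the other, both of which the melanocyte factor MITF and related proteins are known to bind. HOXA13 (chr7:27200042-27200341) and HOXA7 (chr7:27156626-27156925) lie on the minus strand, HOXD4 (chr2:176151300-176151599) and HOXD13 (chr2:176092471-176092770) on the plus strand.
HOXA13: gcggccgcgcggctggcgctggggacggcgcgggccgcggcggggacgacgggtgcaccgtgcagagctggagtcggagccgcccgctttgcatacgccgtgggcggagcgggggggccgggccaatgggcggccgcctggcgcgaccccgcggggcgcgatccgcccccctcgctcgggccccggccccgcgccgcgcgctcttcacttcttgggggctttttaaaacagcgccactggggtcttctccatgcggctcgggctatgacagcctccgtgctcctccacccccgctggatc
HOXA7: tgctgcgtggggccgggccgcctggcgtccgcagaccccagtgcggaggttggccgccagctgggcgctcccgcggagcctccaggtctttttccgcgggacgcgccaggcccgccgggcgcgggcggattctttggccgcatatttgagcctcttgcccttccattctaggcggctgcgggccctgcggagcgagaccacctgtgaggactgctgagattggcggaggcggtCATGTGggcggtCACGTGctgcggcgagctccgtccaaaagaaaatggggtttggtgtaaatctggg
HOXD4: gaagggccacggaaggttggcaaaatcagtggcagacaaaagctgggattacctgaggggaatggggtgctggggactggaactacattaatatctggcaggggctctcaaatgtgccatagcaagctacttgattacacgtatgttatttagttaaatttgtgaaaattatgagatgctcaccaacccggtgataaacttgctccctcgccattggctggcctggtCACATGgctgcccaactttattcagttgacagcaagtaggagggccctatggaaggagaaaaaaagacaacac
HOXD13: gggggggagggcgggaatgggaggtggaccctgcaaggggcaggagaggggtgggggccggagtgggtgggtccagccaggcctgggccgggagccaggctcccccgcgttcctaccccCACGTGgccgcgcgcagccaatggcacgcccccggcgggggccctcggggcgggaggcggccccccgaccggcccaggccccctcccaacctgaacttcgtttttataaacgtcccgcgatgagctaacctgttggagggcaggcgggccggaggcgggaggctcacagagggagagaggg
HOXA13, the only HOX gene called after MAFG overexpression, had no capital in its window, HOXA7 had one of each hexamer, 17 and 5 bases before the start site, HOXD4 had CACATG 23 bases before it and HOXD13 had CACGTG 131 bases before it. Windows were found for 20 of the 39 HOX genes, 26 windows in all, of which HOXA3 supplied 7 and HOXC4 and HOXC5 shared 1. HOXB1 was the only HOXB gene with a window, and HOXC4 and HOXC5 the only HOXC genes, so the shares mainly describe HOXA and HOXD. At least 1 of these hexamers, on either strand, stood in 15 of 26 HOX windows (57.7%), against 17.6% of all 34943 RefSeq windows of the same length. CACGTG, which reads the same on both strands, stood in 34.6% of HOX and 7.2% of all windows, and CATGTG in 30.8% and 11.1%. Resembling the sites that MAF proteins and their partners are known to bind, TGACTCA stood in 0 of the 26 HOX windows and in 5.0% of all windows, read on both strands. The heptamer TGCTGAC stood in 0 of the 26 and in 4.2% of all windows. Median GC content was 58.0% in HOX and 58.7% in all windows, but the windows were not alike in CG pairs. The median ratio of observed to expected CG pairs was 0.855 in HOX and 0.577 in all windows. CACGTG holds such a pair, and its share was not compared with windows of a like ratio. These matches describe letters only, and no binding was measured here.

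All 3 lines carried a broad HOX code. With GFP, 18 HOX genes had a mean of at least 1 TPM in WM164, as did 22 in SKMEL28 and 24 in A375, and 24 of the 39 reached at least 10 counts in every GFP library of all lines. Summed over the family, HOX transcripts came to 103 to 121 TPM in WM164, 113 to 130 in SKMEL28 and 149 to 178 in A375 GFP libraries. HOXC12 was at 0 to 15 counts in WM164 and A375 libraries, so it was low in every line. HOXB1, the hindbrain member of group 1, had 0 counts in all 18 libraries. Because TPM allows genes to be compared per length, the order of genes within a line is given in TPM.

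**Figure D1:**
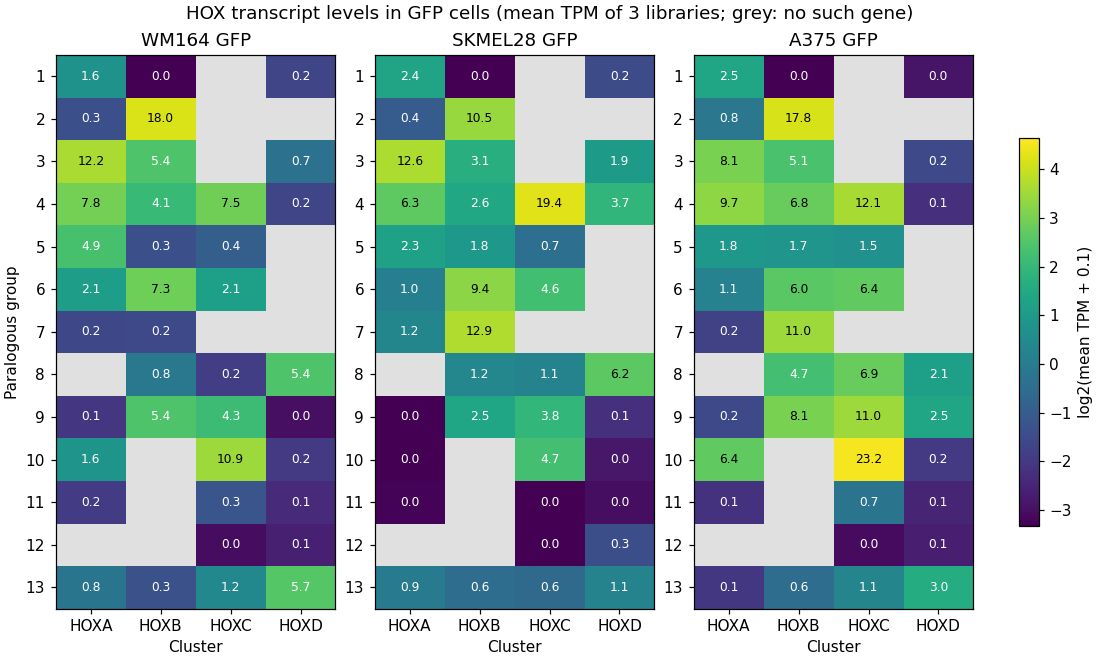
Mean TPM of each HOX gene in GFP cells, with clusters as columns, paralogous groups 1 to 13 as rows, colour for log2(mean TPM + 0.1), the number in each cell for the mean of 3 libraries and grey where the genome has no such gene. SKMEL28 cells are dark from HOXA9 to HOXA11 and at HOXC11 and HOXC12, WM164 cells at HOXB7, HOXC8 and HOXD9, and A375 cells in HOXD1, HOXD3 and HOXD4. Some of these genes are also dark in another line, such as HOXD9 in SKMEL28, HOXD4 in WM164 and HOXC12 in every line.

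The highest HOX genes were anterior or central in SKMEL28 and WM164 cells, with HOXC10 among the top in WM164 and first in A375. In WM164 GFP libraries HOXB2, a group 2 gene active in the hindbrain, was at 16.7, 18.9 and 18.5 TPM, HOXA3 at 11.2, 14.3 and 11.2, and HOXC10 at 10.5, 11 and 11.4. HOXC10, which belongs to the lumbar and hindlimb part of the code, overlapped HOXA3 in range in these libraries, and HOXB2 lay above both. In SKMEL28 GFP libraries HOXC4 was at 19.0, 19.8 and 19.3 TPM, above HOXB7 at 10.1, 15.0 and 13.7 and HOXA3 at 13.1, 15.5 and 9.21, which overlapped. In A375 GFP libraries HOXC10 was at 23.0, 25.1 and 21.4 TPM, above HOXB2 at 18.3, 17.4 and 17.6 and HOXC4 at 14.8, 12.2 and 9.40, with no overlap among the 3 genes.

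By cluster, HOXB supplied a like share of the HOX TPM in all lines, 37.0% ± 0.81 in WM164, then 37.1% ± 2.79 in SKMEL28 and 37.6% ± 0.26 in A375 GFP cells (SD, n = 3). The HOXC share was 23.9% ± 1.14, 29.0% ± 1.26 and 38.4% ± 0.79, and the ranges of the lines did not overlap. The HOXD share was 11.1% ± 0.29 and 11.4% ± 0.86 in WM164 and SKMEL28 but 5.08% ± 0.40 in A375 cells. Along the axis, groups 9 and 10 made up 19.4% to 20.7% of HOX TPM in WM164, 7.82% to 10.2% in SKMEL28 and 28.5% to 34.9% in A375 GFP libraries, while groups 4 to 8 made up 38.5% ± 0.81, 61.8% ± 0.47 and 43.7% ± 3.76. Groups 11 to 13, the most posterior, stood at 7.61% ± 0.30, 2.89% ± 0.24 and 3.58% ± 0.14. SKMEL28 was thus the line with the largest central and the smallest posterior share by these means. These shares are descriptions without a test.

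In SKMEL28 cells a stretch of neighbouring posterior genes in both HOXA and HOXC had at most 3 counts per library, while the genes on either side were detected. HOXA9 and HOXA10, which pattern limbs and take part in blood cell development, had 0 counts in all 6 SKMEL28 libraries, and HOXA11, needed for the forearm and kidney, had 0 to 2. The span from HOXA9 to HOXA11 covers 22.8 kb (chr7:27162438-27185232). On its sides, HOXA7 had 28 to 47 counts and HOXA13, a gene of the distal limb and genital tract, 105 to 160 in SKMEL28 GFP libraries. In HOXC, HOXC11 had 0 counts in all GFP libraries and 0, 0 and 2 in the MAFG libraries, and HOXC12 had 0 in all 6, over 22.7 kb (chr12:53954903-53977643). HOXC10 (118 to 238 counts) and HOXC13, a hair and nail gene (33 to 57), flanked them in SKMEL28 GFP libraries. Among the noncoding RNAs of these stretches, HOTAIR, between HOXC11 and HOXC12, had 0, 3 and 0 counts and HOXA11-AS had 1, 0 and 0 in the same libraries. The noncoding RNAs did not track the genes in every line, since HOXA10-AS had 0 counts in all 6 A375 libraries, where HOXA10 had 309 to 490. Counts this low do not show that the transcripts are absent. The neighbours HOXD10 and HOXD11 also had at most 3 counts in every SKMEL28 GFP library, and at most 5 with MAFG. HOXA9 and HOXA11 were low in the other lines too, at 2 to 22 and 2 to 55 counts in WM164 and A375 libraries.

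Differences between lines were tested in GFP cells in a single edgeR quasi-likelihood model of all 18 libraries, with Benjamini-Hochberg adjustment over the 18767 genes tested. Calls needed a change of more than 2-fold together with an adjusted p no greater than 0.05. Of the 39 HOX genes 36 were tested, and HOXB1, HOXC12 and HOXD11 had too few counts. Values for single libraries below are in CPM scaled over all 18 libraries, which compares a gene between libraries and not genes with each other. Nothing in the labels says that the libraries of a group came from separate cultures, so p-values measure only the spread between these libraries. The 3 comparisons share their GFP libraries, and in bulk RNA fewer expressing cells and less RNA per cell cannot be told apart.

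Between WM164 and SKMEL28 cells, 13 of 36 HOX genes (36.1%) were called higher in WM164, against 15.2% of all genes tested, and 6 (16.7%) lower, against 13.5%. The median absolute log2 difference was 1.505 for HOX genes and 0.70 for all genes. HOXA10 was at 4.57, 3.32 and 5.73 CPM in WM164 and 0 in the SKMEL28 GFP libraries, at least 38.8-fold higher counted against 3 counts per library (edgeR adjusted p = 2.7e-10). HOXC11 was at 1.64, 1.29 and 2.09 CPM against 0, at least 14.3-fold higher (edgeR adjusted p = 9.2e-08), and HOXA9 was at least 2.26-fold higher (edgeR adjusted p = 0.0038), from 2 to 14 counts in WM164. These 3 genes lie in the stretches with at most 3 counts per library in SKMEL28. In the other direction, HOXB7, a group 7 gene, was at 0.285, 0 and 0.474 CPM in WM164 and 14.8, 17.2 and 17.8 in SKMEL28 libraries (log2 difference -6.08, SE 0.33, edgeR adjusted p = 2.6e-12). HOXD4, active in the hindbrain and neck, was at 0.357, 0.464 and 0.316 against 4.40, 4.62 and 4.21 CPM (-3.52, SE 0.57, edgeR adjusted p = 2.0e-05). HOXB5 was at 0.951 ± 0.38 against 4.23 ± 0.59 CPM (SD, n = 3, log2 difference -2.13, SE 0.31). No library of WM164 overlapped one of SKMEL28 in any of the 6 genes, which were chosen as the largest called differences. Such a separation held for 28 of the 36 HOX genes and for 67.3% of all genes tested.

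Between A375 and SKMEL28 cells, 13 of 36 HOX genes (36.1%) were called higher in A375, against 19.4% of all genes, and 6 (16.7%) lower, against 24.4%, with a median absolute log2 difference of 1.49 against 1.02. HOXA10 was at 11.4, 12.2 and 13.7 CPM in A375 GFP libraries, at least 106-fold above SKMEL28 (edgeR adjusted p = 4.2e-12), HOXC11 at 1.90, 2.36 and 2.45 CPM, at least 19.1-fold above (edgeR adjusted p = 1.8e-08), and HOXA9 at least 2.53-fold above (edgeR adjusted p = 0.0023). The group 1, 3 and 4 genes of HOXD were lower in A375. HOXD4 was at 0, 0.136 and 0.307 CPM there (log2 difference -4.88, SE 0.62, edgeR adjusted p = 5.5e-07), HOXD3 at 0.247 ± 0.23 against 3.78 ± 1.6 (SD, n = 3, -3.90, SE 0.72) and HOXD1 at 0.083 ± 0.073 against 0.532 ± 0.094 (-2.64, SE 0.90, edgeR adjusted p = 0.014). HOXD1 lost its call without A375 GFP replicate 1 (edgeR adjusted p = 0.054), and 60.1% of its exonic bases lie opposite HAGLR and a gene known only by its identifier, so that its reads cannot be told from theirs if strand was not used in counting.

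Between A375 and WM164 cells, 9 of 36 HOX genes (25%) were called higher in A375, against 20.6% of all genes, and 7 (19.4%) lower, against 26%, shares near those of all genes, with a median absolute log2 difference of 1.02 against 1.09. HOXD9, a lumbar and limb gene, was at 5.11, 5.05 and 6.30 CPM in A375 and 0.143, 0 and 0.118 in WM164 libraries (log2 difference 5.96, SE 0.63, edgeR adjusted p = 7.8e-08). HOXB7 was at 12.2, 12.6 and 13.1 CPM in A375 (5.69, SE 0.34, edgeR adjusted p = 2.9e-12). HOXC8, which marks the thoracic trunk, was at 21.8, 20.5 and 16.5 CPM in A375 against 0.428, 1.19 and 0.513 in WM164 (4.75, SE 0.28, edgeR adjusted p = 2.4e-12). HOXA13 was lower in A375, at 0.885 ± 0.42 against 6.47 ± 0.19 CPM (SD, n = 3, -2.86, SE 0.30), as were HOXD1 (-3.06, SE 0.90) and HOXD3 (-2.16, SE 0.72). HOXD13 was at 9.20, 7.82 and 8.56 CPM in A375, 23.4, 24.3 and 21.9 in WM164 and 2.63, 3.89 and 2.55 in SKMEL28 libraries, called in all 3 pairs of lines.

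The split into higher and lower calls moved with the scaling. On the deposited TPM, as log2(TPM + 0.1) in limma, 8 HOX genes were called higher and 8 lower in WM164 against SKMEL28, where the median of all genes shifted to -0.42, and 11 higher and 5 lower in A375 against WM164, where it shifted to 0.22. On log2(TPM + 1) the same splits were 3 and 4, and 9 and 2. The 3 largest called differences each way in each pair of lines kept their direction on every scale.

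**Figure D2:**
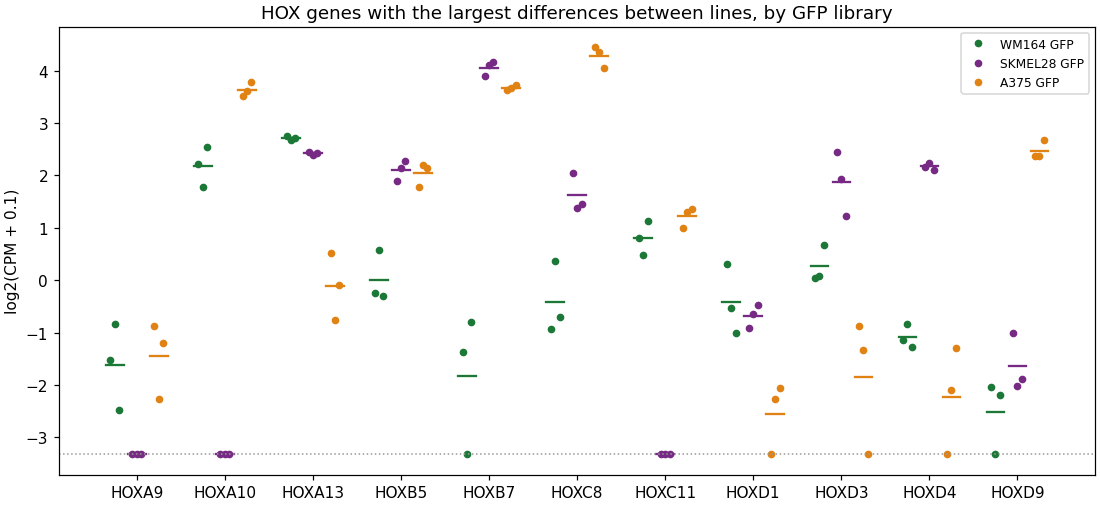
log2(CPM + 0.1) of 11 HOX genes in each GFP library, with colours for the 3 lines, 1 point per library, a bar at the mean of 3 libraries and a dotted line where a library had 0 counts. HOXA9, HOXA10 and HOXC11 lie on the dotted line in all SKMEL28 libraries. HOXB7 in WM164 lies far below SKMEL28 and A375, and HOXD4 in both A375 and WM164 lies far below SKMEL28.

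After MAFG overexpression few HOX genes passed the test. The HOX profile of each line stayed closer to its own GFP cells than to another line, as the profile of all genes did. Over the 39 genes, log CPM profiles of libraries of the same line but different vector correlated at 0.969 to 0.989 (Pearson), replicates of a group at 0.979 to 0.990, and pairs of libraries from 2 lines at 0.679 to 0.790, a description in which the points share their libraries. Over all genes tested in the model of 18 libraries these ranges were 0.979 to 0.990, 0.984 to 0.994 and 0.813 to 0.911. By library, HOXB made up 36.4% to 37.9% of HOX TPM with GFP and 39.3% to 40.0% with MAFG in WM164. In A375 it made up 37.3% to 37.9% and 41.4% to 44.2%. HOXC was lower with MAFG in both lines and HOXD higher in WM164, without overlap. In A375, also without overlap, groups 1 to 3 were higher and groups 9 and 10 and groups 11 to 13 lower. The other shares overlapped, and so did all those of SKMEL28. None of these shares was tested. Each line's MAFG and GFP libraries were then compared on their own 6 libraries with edgeR, adjusted over all genes tested in that line. CPM in what follows is scaled over the 6 libraries of a line.

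In WM164 cells 32 HOX genes were tested and 0 were called, against 6.94% of all 15919 genes, and 0 were called by DESeq2. At an unadjusted p under 0.05 stood 5 HOX genes, a level at which the share of all genes was not counted. Without the fold limit, 1 HOX gene rose (3.12%), against 16.2% of all genes, and 1 fell (3.12%), against 15.6%. The median absolute log2 fold change was 0.22 for HOX and 0.23 for all genes. The 95% interval of the change lay within 2-fold either way for 23 of the 32 (71.9%), and for 73.9% of all genes. MAFG and GFP libraries did not overlap, in either direction, for 5 of the 32 and for 43.4% of all genes. HOXB9, a thoracic gene chosen here for its adjusted p, was at 23.1, 22.6 and 21.9 CPM with GFP and 30.1, 31.3 and 32.7 with MAFG (log2 fold change 0.48, SE 0.08, edgeR adjusted p = 1.1e-04), higher in all 3 MAFG libraries. HOXA13 was at 6.32, 5.94 and 6.08 CPM with GFP and 4.46, 4.43 and 3.78 with MAFG (-0.53, SE 0.15, edgeR adjusted p = 0.012), lower in all 3. HOXA13 no longer passed in a model of all 18 libraries (edgeR adjusted p = 0.225) or on either TPM scale (limma adjusted p up to 0.402). HOXA11 was not called, at 29, 2 and 19 counts with GFP and 55, 46 and 34 with MAFG (1.34, 95% interval 0.14 to 2.54). It was called without WM164 GFP replicate 1 or without a count filter. The intervals of HOXB8 (0.019 to 1.13) and HOXA5 (-0.57 to -0.027) also excluded 0, but neither gene passed the adjusted p.

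In SKMEL28 cells 29 HOX genes were tested and 1 was called (3.45%), against 4.74% of all 15523 genes. It was HOXA13, which stood at 5.09, 4.91 and 5.06 CPM with GFP (105 to 160 counts) and at 1.79, 2.63 and 1.33 with MAFG (37 to 77 counts), a log2 fold change of -1.39 (SE 0.24, edgeR adjusted p = 4.1e-04). The groups did not overlap, and the lowest GFP library was above the highest MAFG library by more than the range within either group. Groups without overlap, in either direction, were found for 6 of the 29 HOX genes and for 43% of all genes. The adjusted p stayed at 0.033 or less under all 14 alternatives. Without the fold limit 2 HOX genes rose (6.90%), against 14.6% of all genes, and 1 fell (3.45%), against 15.3%. At an unadjusted p under 0.05 stood 6 HOX genes, and the share of all genes at that level was not counted. The risers, named here for their adjusted p, were HOXD8, at 10.7, 9.39 and 11.2 CPM with GFP and 15.0, 15.7 and 14.2 with MAFG (0.52, SE 0.11, edgeR adjusted p = 0.0024), and HOXB7, at 14.1, 16.3 and 17.1 and then 20.01, 19.39 and 19.97 CPM (0.32, SE 0.10, edgeR adjusted p = 0.019). HOXD8 did not pass on log2(TPM + 1) or log2(TPM + 0.1) (limma adjusted p up to 0.125). HOXB7 passed on neither TPM scale (limma adjusted p up to 0.612), nor in a model of all 18 libraries (edgeR adjusted p = 0.346), nor without SKMEL28 GFP replicate 1 (0.109) or SKMEL28 MAFG replicate 1 (0.0529). Of the 29 genes, 20 (69.0%) had an interval within 2-fold either way, against 73.4% of all genes, and the median absolute log2 fold change was 0.25 against 0.23. The stretches from HOXA9 to HOXA11 and from HOXC11 to HOXC12 stayed at 0 to 2 counts in the MAFG libraries.

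In A375 cells 34 HOX genes were tested and 0 were called, against 0.665% of all 15779 genes, and 0 were called by DESeq2. At an unadjusted p under 0.05 stood 7 HOX genes, and the share of all genes at that level was not counted. Without the fold limit 1 rose (2.94%), against 0.78% of all genes, and 0 fell, against 0.0634%. It was HOXB8, a cervical to thoracic gene named for its adjusted p, at 9.16, 6.56 and 7.74 CPM with GFP and 14.4, 12.8 and 15.5 with MAFG (log2 fold change 0.86, SE 0.17, edgeR adjusted p = 0.045). The groups did not overlap, but the adjusted p no longer passed without any of 5 of the 6 libraries: leaving out A375 GFP replicate 1, 2 or 3 gave edgeR adjusted p = 0.077, 0.27 and 0.21, and leaving out A375 MAFG replicate 2 or 3 gave 0.13 and 0.17. HOXB8 also passed on neither TPM scale (limma adjusted p up to 0.553) and not with a minimum of 10 counts in each library (edgeR adjusted p = 0.0586). HOXD13 was at 10.2, 8.67 and 9.54 CPM with GFP and 6.17, 5.41 and 3.91 with MAFG, which did not overlap (-0.87, SE 0.20, edgeR adjusted p = 0.11). The gene passed the adjusted p, but was not called, by DESeq2, without a count filter and in a model of all 18 libraries. Without A375 MAFG replicate 1, the library that stood apart, HOXD13 was called, and the count of HOX genes called in A375 was 1 in place of 0. HOXA7 was at 12, 17 and 22 counts with GFP and 3, 2 and 6 with MAFG (-2.32, SE 0.79, edgeR adjusted p = 0.48). The interval lay within 2-fold for 22 of the 34 genes (64.7%) and for 72.0% of all genes, and the median absolute log2 fold change was 0.14 against 0.13. MAFG and GFP libraries did not overlap, in either direction, for 8 of the 34 genes and for 12.8% of all genes. SOX10 rose in the same libraries, from 7.69, 9.03 and 12.8 to 152, 115 and 111 CPM, and its part in the HOX values was not tested.

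**Figure D3:**
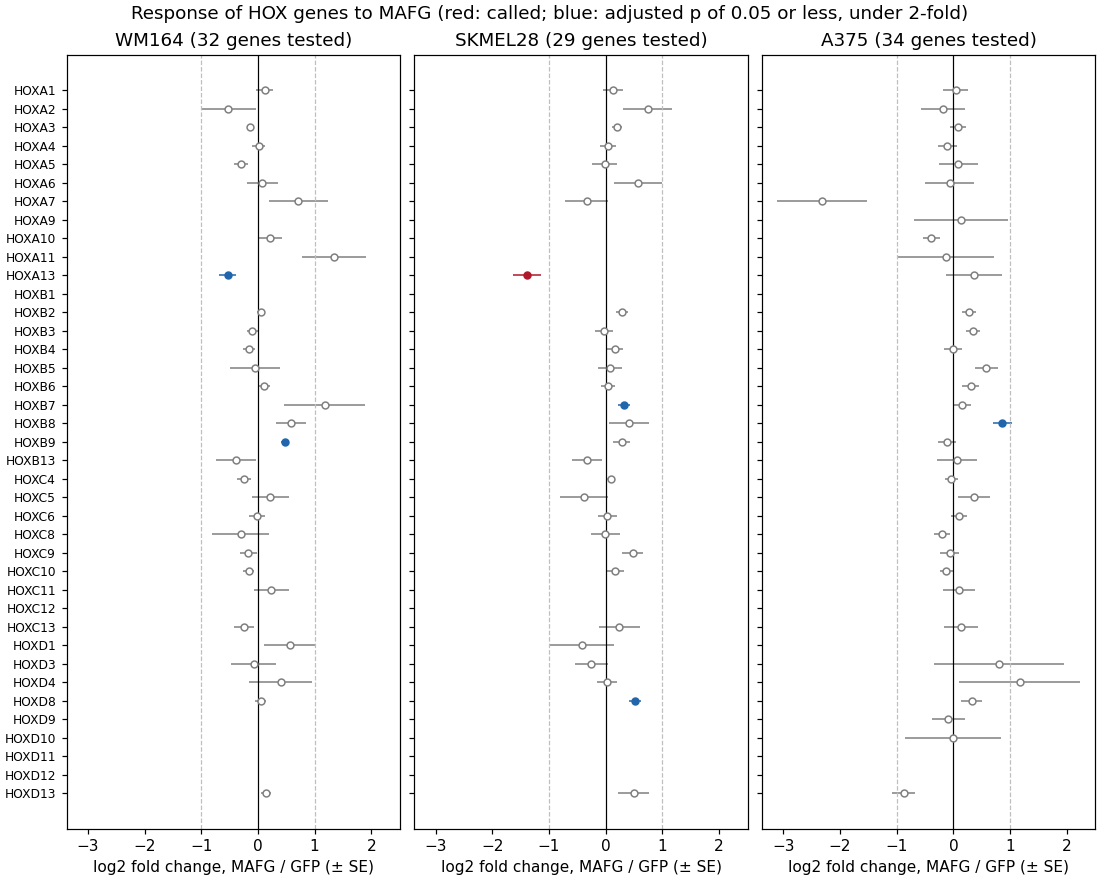
log2 fold change of MAFG over GFP with its standard error for every HOX gene tested in each line (32, 29 and 34 genes), with dashed lines at 2-fold, red for called genes and blue for genes with an adjusted p of 0.05 or less and under 2-fold. HOXA13 in SKMEL28 is the only red point, and most points lie between the dashed lines.

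Whether a response differed between lines was tested as a contrast in the model of 18 libraries, where 36 HOX genes were tested. Between WM164 and SKMEL28, 1 of 36 HOX genes was called (background 5.1%), between WM164 and A375, 2 (background 4.39%), and between SKMEL28 and A375, 3 (background 4.2%). HOXA13 responded differently in SKMEL28 and A375 (difference of log2 responses -1.76, SE 0.43, edgeR adjusted p = 0.011). In A375 it was at 1.47, 0.542 and 0.932 CPM with GFP and 1.38, 0.922 and 1.497 with MAFG, which overlapped. Between WM164 and SKMEL28 the HOXA13 responses were not shown to differ (0.86, SE 0.40, edgeR adjusted p = 0.18).

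HOXD13, a gene of the digits, responded differently in A375 than in SKMEL28 (1.37, SE 0.31, edgeR adjusted p = 0.0073) and than in WM164 (1.01, SE 0.28, edgeR adjusted p = 0.028). It was at 22.1, 22.9 and 20.7 CPM with GFP and 23.8, 23.9 and 24.9 with MAFG in WM164, and at 2.51, 3.69 and 2.45 and then 3.38, 2.84 and 5.92 in SKMEL28 cells. The A375 libraries fell where those of WM164 were slightly higher with MAFG, but the difference from WM164 no longer passed when any of the 3 WM164 GFP or the 3 WM164 MAFG libraries was left out, nor without A375 GFP replicate 1 or A375 MAFG replicate 3 (edgeR adjusted p = 0.051 to 0.072). The difference of A375 from SKMEL28 passed on neither TPM scale (limma adjusted p up to 0.078). Without SKMEL28 MAFG replicate 3 it still passed the adjusted p but was no longer called. HOXA7 differed between WM164 and A375 (3.02, SE 0.79, edgeR adjusted p = 0.018). This difference did not pass with the replicate number as a block or on either TPM scale. HOXA7 had 19, 12 and 7 counts with GFP and 12, 24 and 30 with MAFG in WM164, and 62.5% of its exonic bases lie opposite HOXA-AS3, whose reads may not be separated from its own.

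HOXD9 differed between SKMEL28 and both other lines (edgeR adjusted p = 0.017 against WM164 and 0.021 against A375). In SKMEL28 it had 12, 3 and 5 counts with GFP and 0 in all 3 MAFG libraries, so the fitted size has no meaning as a fold. In WM164 it had 4, 0 and 3 counts with GFP and 1, 3 and 8 with MAFG, and in A375 196, 186 and 226 and then 326, 139 and 162. The difference from WM164 did not pass without WM164 MAFG replicate 3 (edgeR adjusted p = 0.074), and that from A375 did not pass without SKMEL28 GFP replicate 1 (0.075) or without SKMEL28 MAFG replicate 1, 2 or 3 (0.056, 0.056 and 0.052). These few counts limit what can be read from HOXD9.

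**Figure D4:**
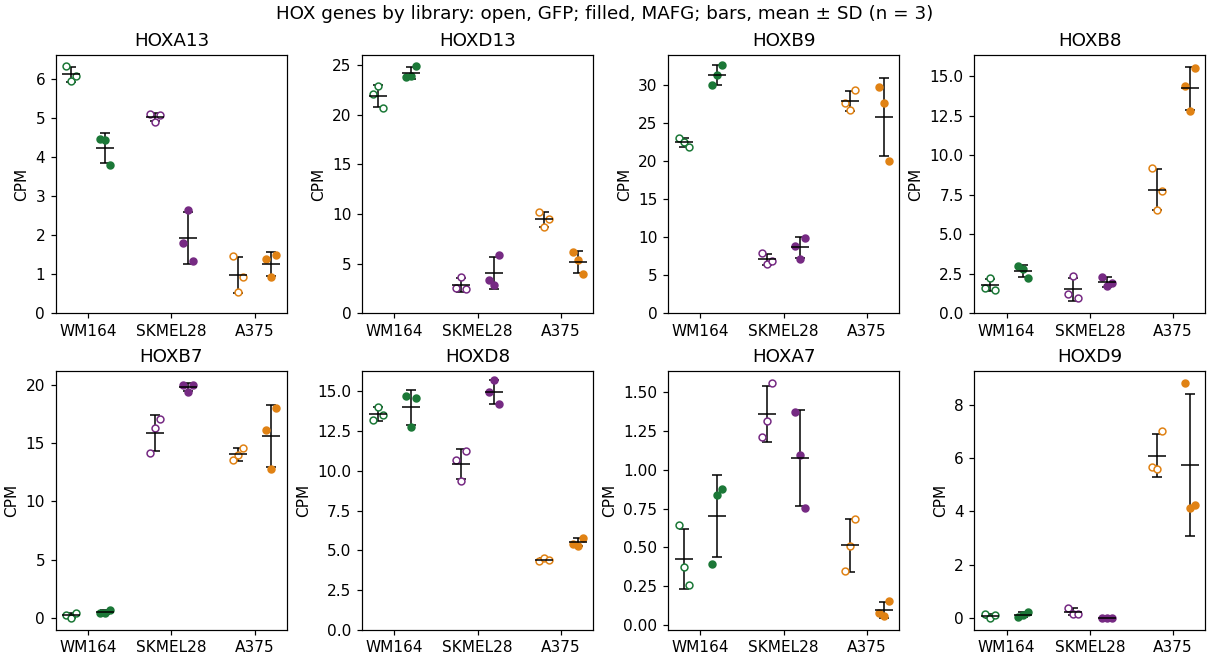
CPM of 8 HOX genes in each library by line, open points for GFP, filled points for MAFG and bars for the mean ± SD of 3 libraries. HOXA13 is lower in all MAFG libraries of WM164 and SKMEL28 and overlaps in A375, whereas HOXD13 is lower in all MAFG than in all GFP libraries of A375, higher in those of WM164, and overlaps in SKMEL28.

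The proteins that set and read the HOX code were tested the same way, on lists of known genes. Over all genes tested, 16.2% rose and 15.6% fell in WM164, 14.6% and 15.3% in SKMEL28, and 0.78% and 0.0634% in A375, and the counts of each list stand beside these shares. Of the TALE cofactors, 1 rose and 2 fell among 8 tested in WM164, 1 rose in SKMEL28 and 0 passed in A375. Of 27 Polycomb genes, 3 rose and 5 fell in WM164, 4 rose and 8 fell in SKMEL28 and 0 passed in A375. Of 19 Trithorax genes, 6 rose and 3 fell in WM164, 1 rose and 3 fell in SKMEL28 and 0 passed in A375. No member of these 3 lists was called in any line by edgeR. Their median log2 fold changes were 0.06, -0.06 and 0.01 in WM164 cells, were -0.01, -0.03 and -0.02 in SKMEL28 cells, and were 0.26, -0.01 and -0.01 in A375 cells, beside -0.0015, -0.0080 and -0.00037 for all genes. At an unadjusted p under 0.05, 1 TALE, 0 Polycomb and 0 Trithorax genes moved in A375, where the share of all genes at that level was not counted.

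Between lines, the cofactors themselves differed. PKNOX2, a TALE homeodomain gene, had 7, 0 and 5 counts in A375 and 1726 to 2153 in WM164 GFP libraries. Over all genes tested, 20.6% were called higher and 26% lower in A375 against WM164, 19.4% and 24.4% in A375 against SKMEL28, and 15.2% and 13.5% in WM164 against SKMEL28. By comparison, 1 TALE gene was called higher and 4 lower among 9 in A375 against WM164, 2 and 3 in A375 against SKMEL28, and 3 and 0 in WM164 against SKMEL28. For 27 Polycomb genes the counts were 2 and 3, 3 and 4, and 1 and 2, and for 19 Trithorax genes 3 and 0, 5 and 1, and 0 and 0. In the last, 10 genes had an unadjusted p under 0.05, a level at which the share of all genes was not counted.

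Genes that act upstream of HOX expression, a list of CDX, boundary and retinoic acid factors, had 1 member down among 7 in WM164, 1 up and 1 down among 7 in SKMEL28 and 0 among 8 in A375 after MAFG overexpression, where 16.2% of all genes rose and 15.6% fell in WM164 and 14.6% and 15.3% in SKMEL28. CYP26B1, which breaks down retinoic acid, was the called gene in SKMEL28, with 11, 2 and 0 counts with GFP and 17, 21 and 31 with MAFG (log2 fold change 2.33, SE 0.77, edgeR adjusted p = 0.031). RARB, a retinoic acid receptor, was at least 38.5-fold higher in A375 than in WM164 and at least 35.7-fold higher than in SKMEL28 GFP cells (edgeR adjusted p = 3.6e-08 and 7.7e-08). The list had 3 called higher and 1 lower among 8 in A375 against WM164, 3 and 0 in A375 against SKMEL28, and 2 and 0 in WM164 against SKMEL28, beside 20.6% and 26%, 19.4% and 24.4%, and 15.2% and 13.5% of all genes.

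Within the clusters, noncoding RNAs gave 1 riser among 11 tested in WM164, 1 riser and 1 faller among 7 in SKMEL28 and 0 among 9 in A375 cells, where 16.2% and 15.6% of all genes rose and fell in WM164 and 14.6% and 15.3% in SKMEL28. HOXC-AS3 rose in WM164, from 29, 31 and 29 to 75, 92 and 68 counts (log2 fold change 1.33, SE 0.30, edgeR adjusted p = 0.0023), while HOXC10, the gene it overlaps on the other strand, had a log2 fold change of -0.16 (SE 0.10, edgeR adjusted p = 0.22). HAGLROS fell in SKMEL28, from 30, 12 and 19 to 11, 3 and 4 counts (-1.82, SE 0.61, edgeR adjusted p = 0.034), and had 0 counts in all WM164 libraries. HOTTIP, transcribed beside HOXA13, had 3, 5 and 5 counts with GFP and 0, 0 and 4 with MAFG in SKMEL28 cells, too few to be tested. Between lines, 2 of 14 noncoding RNAs were called higher and 6 lower in A375 against WM164, 4 and 2 in A375 against SKMEL28, and 6 and 1 in WM164 against SKMEL28, beside 20.6% and 26%, 19.4% and 24.4%, and 15.2% and 13.5% of all genes. HAGLR, in HOXD, was lower in A375 than in WM164 (log2 difference -2.90, SE 0.11) and SKMEL28 (-3.53, SE 0.12), as were HOXD1 and HOXD3 near it. Of the exonic bases of HOXD1 and HOXD3, 60.1% and 14.1% lie opposite HAGLR or other genes, whose reads may not be separated from theirs.

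Genes next to the clusters and other positional factors were compared with the HOX genes. Of the flanking genes, 1 rose and 5 fell among 14 in WM164, 3 rose and 2 fell among 14 in SKMEL28 and 0 of 15 passed in A375, beside 16.2% and 15.6% of all genes in WM164 and 14.6% and 15.3% in SKMEL28. CBX5, a heterochromatin protein gene next to HOXC, rose from 35.7, 34.2 and 37.7 to 72.8, 72.3 and 70.7 CPM in SKMEL28 (log2 fold change 1.002, SE 0.06, edgeR adjusted p = 1.4e-08), and TTLL6, next to HOXB, fell there (-2.49, SE 0.50, edgeR adjusted p = 0.0014). Between lines, 1 of 15 was called higher and 4 lower in A375 against WM164, 2 and 5 in A375 against SKMEL28, and 3 and 1 in WM164 against SKMEL28, beside the same shares of all genes as for the noncoding RNAs.

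Homeobox and T-box genes outside the HOX clusters were the last list. Among 22 tested in WM164, 8 rose and 4 fell, against 16.2% and 15.6% of all genes, with 3 called, against 6.94%. Among 21 in SKMEL28, 6 rose and 2 fell, against 14.6% and 15.3%, with 3 called, against 4.74%. Among 22 in A375, 2 rose, against 0.78%, both called, against 0.665%. Their median absolute log2 fold changes were 0.39, 0.45 and 0.19, against 0.22, 0.25 and 0.14 for HOX genes. PRRX1, a limb and craniofacial mesenchyme factor, rose from 14.3, 14.2 and 16.3 to 34.5, 34.6 and 35.3 CPM in WM164 (log2 fold change 1.22, SE 0.08, edgeR adjusted p = 2.6e-09) and from 0.376, 0.512 and 0.746 to 8.39, 9.66 and 7.41 CPM in A375 (3.96, SE 0.29, edgeR adjusted p = 7.9e-05), and had 0 counts in all SKMEL28 libraries. MEOX2, a mesoderm factor, rose in A375 from 1.13, 1.81 and 1.40 to 10.8, 16.3 and 15.9 CPM (3.31, SE 0.25, edgeR adjusted p = 7.9e-05). In WM164 TBX3 (1.06, SE 0.08) and HAND2 (1.92, SE 0.54), both limb factors, were called. In SKMEL28 EMX2 (1.12, SE 0.13), DLX5 (2.55, SE 0.42) and DLX6 (1.87, SE 0.44) were called, each higher in all 3 MAFG libraries than in all 3 GFP libraries. The groups were separate, in either direction, for 43% of all genes tested there. Between lines, 7 of 26 were called higher and 10 lower in A375 against WM164, 8 and 10 in A375 against SKMEL28, and 9 and 4 in WM164 against SKMEL28, beside 20.6% and 26%, 19.4% and 24.4%, and 15.2% and 13.5% of all genes. EMX2 had 0 counts in all WM164 and A375 libraries. Whether these genes and the HOX genes differ in response as groups was not tested.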

How the data were processed

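RNA-seq libraries of 3 human melanoma lines overexpressing MAFG or GFP were used, 3 per group. Per the labels, reads were trimmed with cutadapt 1.8.1 and aligned with STAR 2.7.7a to GRCh38, and RSEM 1.3.0 and DESeq2 are also named. The counts deposited by the authors are whole reads per gene (58870 genes, featureCounts in the study's methods), and the TPM values deposited by the authors are scaled per length and library. Neither the annotation release nor whether counting used strand is given in the sources used here. The labels name a kit without strand and the methods a stranded kit, so that reads of genes overlapping on opposite strands may not be separated. Depth was 20122172 to 39025042 counts per library, and 0 sample columns were left unused.

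Counts were tested with edgeR 4.0.16 (R 4.3.3, TMM, filterByExpr, quasi-likelihood F test, Benjamini-Hochberg over all genes tested): MAFG against GFP on the 6 libraries of a line, lines in GFP cells and differences of responses in a model of all 18. The study's thresholds set the calls: more than 2-fold, with an adjusted p no greater than 0.05. The SE is the absolute log2 fold change over the square root of F. Where a group had at most 3 counts in every library, the fold is a bound against 3 counts per library. Positions and overlaps came from GENCODE release 44, matched by gene identifier for all 39 HOX genes, and promoters from RefSeq. The HOX genes, the gene lists and the alternatives were chosen with earlier results of these data known. Named genes were the 3 HOX genes of highest TPM per line, those called with MAFG or with a called difference of responses, the 3 largest called differences each way per pair of lines, and, of the lists, members called with MAFG and up to 2 each way per pair of lines. HOXB9, HOXB7, HOXD8, HOXB8 and further values were added after they had been seen. Alternatives were DESeq2 1.42.0, edgeR with DESeq2 size factors, edgeR unfiltered or with a minimum of 10 counts per library, a block for the replicate number, limma 3.58.1 on log2(TPM + 1) and log2(TPM + 0.1) of genes with at least 0.1 TPM in 3 libraries, all 18 libraries or the GFP libraries alone, and each library left out. 1 gene of the cofactor list is not reported here by name. The tests were checked on simulated counts. Figures used matplotlib 3.10.9.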

Additional observations from a re-analysis of the deposited data

Results flagged for a closer look

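Responses to MAFG that differed between lines were singled out, each from the contrast of 2 responses by edgeR's quasi-likelihood test, adjusted over all genes by Benjamini-Hochberg, with 3 libraries per group. The response of HOXD9 in WM164 minus that in SKMEL28 was fitted at 6.64 (adjusted p = 0.017), and that in SKMEL28 minus that in A375 at -5.92 (adjusted p = 0.021). All 3 SKMEL28 MAFG libraries had 0 counts, so neither is a fold. The response of HOXA7 in WM164 minus that in A375 was 3.02 (adjusted p = 0.018), with 2 to 30 counts per library in these groups. For HOXD13 the response in WM164 minus that in A375 was 1.01 (adjusted p = 0.028), and the response in SKMEL28 minus that in A375 was 1.37 (adjusted p = 0.0073). The response of HOXA13 in SKMEL28 minus that in A375 was -1.76 (adjusted p = 0.011). Groups of 3 libraries are too small for a test of single outlying libraries.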

How the results depend on the processing

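Among the alternative values of HOX genes named in comparisons, 387 kept their direction and side of the threshold, 44 kept the direction but did not pass, and 1 reversed, the HOXD9 response in SKMEL28 minus that in A375 on log2(TPM + 1), at 0.034. Of the alternative counts of HOX genes, 136 stayed within 1.5 times the main count and 48 did not. Called with MAFG were 1 in WM164 (HOXA11) and 2 in SKMEL28 (HOXA13 and HOXD9) without a count filter, 0 in SKMEL28 on log2(TPM + 1), and 2 in SKMEL28 and 1 in A375 (HOXA7) in a model of all 18 libraries. Counts at an adjusted p of 0.05 or less were 1 in WM164, 1 in SKMEL28 and 0 in A375 on both TPM scales, 1 in WM164 and 3 in A375 with all 18 libraries, 5 in SKMEL28 and 2 in A375 without a filter, 2 in A375 with DESeq2 and 0 in A375 with at least 10 counts in every library. Between lines, at least 10 counts left 10 called in A375 against SKMEL28 and 11 in WM164 against SKMEL28, fewer genes being tested (23), and log2(TPM + 1) left 11 and 7. Differences of responses (WM164 minus SKMEL28, WM164 minus A375, SKMEL28 minus A375) were 0, 0 and 0 on log2(TPM + 1), 0, 1 and 1 on log2(TPM + 0.1), and 0 and 1 in the first 2 with at least 10 counts. Where no cause is given, the cause was not tested.

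Replicate numbers are shared between groups, but same-numbered MAFG and GFP libraries did not deviate together. Their correlations were -0.11 to 0.033, against -0.081 to 0.161 for libraries with different numbers. Such correlations cannot show that the libraries were prepared apart, so whether they were paired is not known. With the replicate number as a block, 0 HOX genes passed the adjusted p in A375 and 0 were called for WM164 minus A375, and other counts stayed within 1.5 times. With single libraries left out, counts called with MAFG were 0 to 1 in WM164, 1 to 1 in SKMEL28 and 0 to 1 in A375 (the 1 without WM164 GFP replicate 1 or A375 MAFG replicate 1), and counts at the adjusted p 2 to 3, 2 to 4 and 0 to 2. Called differences of responses were 0 to 1, 1 to 2 and 1 to 3, in the order above, and differences between lines 15 to 17 (A375 and WM164), 18 to 21 (A375 and SKMEL28) and 18 to 19 (WM164 and SKMEL28). Depth limits HOX genes of few counts: the median SE was 0.16, 0.18 and 0.20 for HOX genes in WM164, SKMEL28 and A375, against 0.11, 0.12 and 0.18 for all genes. A375 was the highest line in 16 HOX genes by CPM and 16 by TPM, WM164 in 15 and 10, and SKMEL28 in 7 and 12.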
